A study of Mus musculus with 9 samples.

Results

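The 9 genes described here form the plasminogen activation and coagulation set of a mouse RNA sequencing study. They were chosen by name, with earlier results of these data known. They are Plat, Plau, Plaur, Serpine2, Serpinb2, F3, F10, F13a1 and Thbd, out of 21936 genes listed for the tumour cells and 22060 for the macrophages, and all 9 were found in both tables. The study held 9 libraries of C57BL cells with 1 library per group. Macrophages grown from bone marrow were of 2 kinds, which the labels call GM-BMDM and M-BMDM, each after 4 h of tunicamycin (Tm) or untreated. Lewis lung carcinoma (LLC) cells, a mouse lung tumour line, had been cultured for 24 h in medium conditioned for 16 h by GM-BMDM or M-BMDM that had received tunicamycin for 12 h and been washed, in medium from GM-BMDM or M-BMDM that had received none, or were left untreated. The words stressed and unstressed stand below for medium of macrophages with and without tunicamycin. This drug stops N-linked glycosylation, so that misfolded proteins build up in the endoplasmic reticulum (ER). How the untreated LLC cells were fed is not given in the sources used here, so macrophage conditioning and the feeding of the cells cannot be told apart in comparisons of medium with untreated cells.

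Plasmin, the protease that dissolves fibrin and opens matrix around cells, is cut from plasminogen by the tissue-type activator (Plat) and the urokinase-type activator (Plau). Urokinase is held at the cell surface by its receptor (Plaur), and the serpins encoded by Serpinb2 and Serpine2 inhibit these activators. On the clotting side, tissue factor (F3) starts the cascade together with factor VII, factor X (F10) is then activated to the protease that makes thrombin, the A subunit of factor XIII (F13a1) cross-links fibrin, and thrombomodulin (Thbd) turns thrombin to the activation of protein C. Macrophages and tumour cells are known sources of urokinase, its receptor and tissue factor.

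Reads assigned to genes totalled 15020068 to 17128471 in the LLC libraries and 37695079 to 42751176 in the BMDM libraries. Levels are CPM, read counts scaled to a common total with TMM effective library sizes, set within each table only, and intervals are exact 95% intervals that cover counting error and not the spread between cultures. Of the 8 macrophage markers, Adgre1, Itgam and Ptprc had 0 counts in all 5 LLC libraries, and Csf1r and Fcgr1 had no more than 0.378 CPM. The other 3 passed the minimum level in LLC, each highest in untreated cells. These were Mertk (8.06 to 15.8 CPM), Lyz2 (2.73 to 5.01 CPM) and Cd68 (0.520 to 2.77 CPM). In BMDM all 8 macrophage markers passed the minimum level. In LLC the keratin Krt8 lay between 320 and 494 CPM, while the epithelial adhesion gene Epcam had no more than 0.195 CPM in any library.

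Both cell types transcribed the activation system, sharing Plau, Plaur and Thbd and differing in the other members. A minimum mean of 1 CPM over a table was passed by 5 of the 9 genes in LLC (Plat, Plau, Plaur, F3 and Thbd), each with at least 1 CPM in every LLC library. Serpine2, Serpinb2 and F13a1 had 0 counts in all 5 LLC libraries, which allows up to 0.198 CPM per library (3 counts), and F10 had 1 count, in untreated cells. In BMDM 7 of the 9 passed, all but Plat and F3. Serpinb2 and Serpine2 passed through GM-BMDM alone, and 5 genes (Plau, Plaur, F10, F13a1 and Thbd) had at least 1 CPM in every BMDM library. Per gene length, untreated LLC cells had 93.0 FPKM of Plau, 55.0 FPKM of F3, 19.3 FPKM of Plaur, 4.17 FPKM of Plat and 2.36 FPKM of Thbd in the deposited values. Untreated GM-BMDM had 155 FPKM of Plaur, 107 FPKM of Plau, 98.1 FPKM of F10, 11.3 FPKM of F13a1, 11.2 FPKM of Serpinb2 and 2.48 FPKM of Thbd. In untreated M-BMDM the order was another, with 10.5 FPKM of F13a1, 10.4 FPKM of Plau, 7.02 FPKM of Plaur, 6.12 FPKM of F10 and 2.54 FPKM of Thbd.

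Promoter windows ran from 250 bases before to 50 bases after the start site. The RefSeq (GRCm38.p6) windows used here covered 6 of the 9 genes, Plaur, Serpine2, Serpinb2, F3, F10 and F13a1. They held none for Plat, Plau and Thbd, which says nothing about the start sites of these genes. Serpinb2 and F13a1 each had 2 windows, and the other window of each was not used. The windows of Plaur, Serpinb2 and F3 are shown because all 3 hold a match to the AP-1 motif TGANTCA and these genes differ in level between cell types or conditions below. All 3 lie on the + strand, Plaur at chr7:24462233-24462532, Serpinb2 at chr1:107511173-107511472 and F3 at chr3:121723287-121723586. Capitals mark matches on either strand to TGANTCA, to the PU.1 core GAGGAAG and to the TATA box TATAAA.
Plaur: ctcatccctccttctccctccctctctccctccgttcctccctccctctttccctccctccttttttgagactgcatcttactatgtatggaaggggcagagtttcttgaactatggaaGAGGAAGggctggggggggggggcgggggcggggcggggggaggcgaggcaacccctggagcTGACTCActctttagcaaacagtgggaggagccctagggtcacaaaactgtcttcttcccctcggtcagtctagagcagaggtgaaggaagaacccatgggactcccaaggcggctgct
Serpinb2: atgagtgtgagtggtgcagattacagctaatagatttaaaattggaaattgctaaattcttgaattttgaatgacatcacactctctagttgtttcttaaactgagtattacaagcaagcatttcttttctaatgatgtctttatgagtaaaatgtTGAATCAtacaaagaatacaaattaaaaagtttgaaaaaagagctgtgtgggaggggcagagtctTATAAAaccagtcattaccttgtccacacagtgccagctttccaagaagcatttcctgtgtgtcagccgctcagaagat
F3: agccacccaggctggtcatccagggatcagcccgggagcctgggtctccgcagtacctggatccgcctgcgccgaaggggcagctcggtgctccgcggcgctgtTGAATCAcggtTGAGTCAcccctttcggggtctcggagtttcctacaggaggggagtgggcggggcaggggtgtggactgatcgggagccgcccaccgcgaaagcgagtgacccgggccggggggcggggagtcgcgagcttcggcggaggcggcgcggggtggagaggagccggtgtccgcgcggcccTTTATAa
Position -1 is the base before the start site. The AP-1 match begins at -69 in Plaur and at -94 in Serpinb2, and 2 matches begin at -146 and -135 in F3. Plaur has the PU.1 core at -131, Serpinb2 a TATA box at -29, and F3 a TATA box on the - strand at 44 after the start. Among the windows not shown, F13a1 has the PU.1 core at -66 and at 18 after the start. The windows of Serpine2, F10 and F13a1 hold no match to TGANTCA, and F10 and Serpine2 also differ in level between the macrophage kinds below. Of all 32851 windows in the table, 7.81% hold TGANTCA, 13.6% GAGGAAG and 13.6% TATAAA. Beyond these, TGACGTCA (CRE, in 1.79% of windows) and TGATGNAA (CCAAT/ATF composite, in 3.97%) matched in none of the 6 windows. GGGCGG (GC box, 35.7%) matched in Plaur, Serpine2 and F3, and the NF-kB motif (50.8%) in Plaur, Serpine2, F3 and F10, with overlaps between these 2 motifs in Serpine2 and F3. The capitalised motifs overlap no other motif. GC content was 59.3% in the Plaur window, 35.3% in that of Serpinb2 and 70.3% in that of F3, against a median of 52.7% over all windows. A match is a description of the letters and was not tied to binding.

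In LLC cells every expressed gene of the set was lower in each of the 4 media than in untreated cells, and Plat most of all. All 4 comparisons share the untreated library, and the share of all genes lower in all 4 media is not given here. Plat (ENSMUSG00000031538, chr8:22757727-22782844, + strand, GRCm38) had 2.65 CPM in stressed GM medium, 2.27 CPM in unstressed GM medium, 3.08 CPM in stressed M medium and 1.48 CPM in unstressed M medium, against 25.8 CPM in untreated cells. The counts behind these levels were 42, 35, 52 and 23 reads in the media, against 391 reads in untreated cells. Untreated cells stood far above the others, and no neighbours among the 4 media in the order of levels differed beyond counting error. The fold was 9.74 lower in stressed GM medium (95% interval 7.07 to 13.7) and 8.37 lower in stressed M medium (6.26 to 11.4). In the unstressed media Plat stood lower still, by a factor of 11.3 with GM medium (8.004 to 16.5) and 17.4 with M medium (11.4 to 27.7).

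Plau (ENSMUSG00000021822, chr14:20836660-20843385, + strand) had 75.1 CPM in stressed GM medium, 97.0 CPM in unstressed GM medium, 69.8 CPM in stressed M medium and 77.7 CPM in unstressed M medium, against 218 CPM in untreated cells. Unstressed GM medium left the second highest level, and the other 3 media lay close together. These levels were 2.24-fold (2.11 to 2.39, unstressed GM medium) to 3.12-fold (2.92 to 3.34, stressed M medium) lower than in untreated cells.

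Plaur (ENSMUSG00000046223, chr7:24462484-24475968, + strand) had 32.8 CPM in stressed GM medium, 22.0 CPM in unstressed GM medium, 30.3 CPM in stressed M medium and 18.8 CPM in unstressed M medium, against 49.9 CPM in untreated cells. Both stressed media lay between the unstressed media and the untreated cells. The level was 1.52-fold lower in stressed GM medium (1.36 to 1.70) and 1.65-fold lower in stressed M medium (1.47 to 1.85). In unstressed GM medium it was 2.27-fold lower (1.99 to 2.59), and in unstressed M medium 2.66-fold lower (2.32 to 3.05).

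F3 (ENSMUSG00000028128, chr3:121723537-121735048, + strand) had 70.5 CPM in stressed GM medium, 69.8 CPM in unstressed GM medium, 81.7 CPM in stressed M medium and 71.8 CPM in unstressed M medium, against 137 CPM in untreated cells. Stressed M medium stood above the other 3 media, which did not differ from their neighbours beyond counting error. Tissue factor was thus 1.68-fold (1.57 to 1.80, stressed M medium) to 1.97-fold (1.83 to 2.12, unstressed GM medium) lower.

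Thbd (ENSMUSG00000074743, chr2:148404466-148408188, - strand) had 4.53 CPM in stressed GM medium, 6.24 CPM in unstressed GM medium, 4.97 CPM in stressed M medium and 5.10 CPM in unstressed M medium, against 8.69 CPM in untreated cells. Only the untreated library stood apart from its neighbour beyond counting error. The fold lay between 1.39 lower in unstressed GM medium (1.06 to 1.83) and 1.92 lower in stressed GM medium (1.43 to 2.59).

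**Figure D1:**
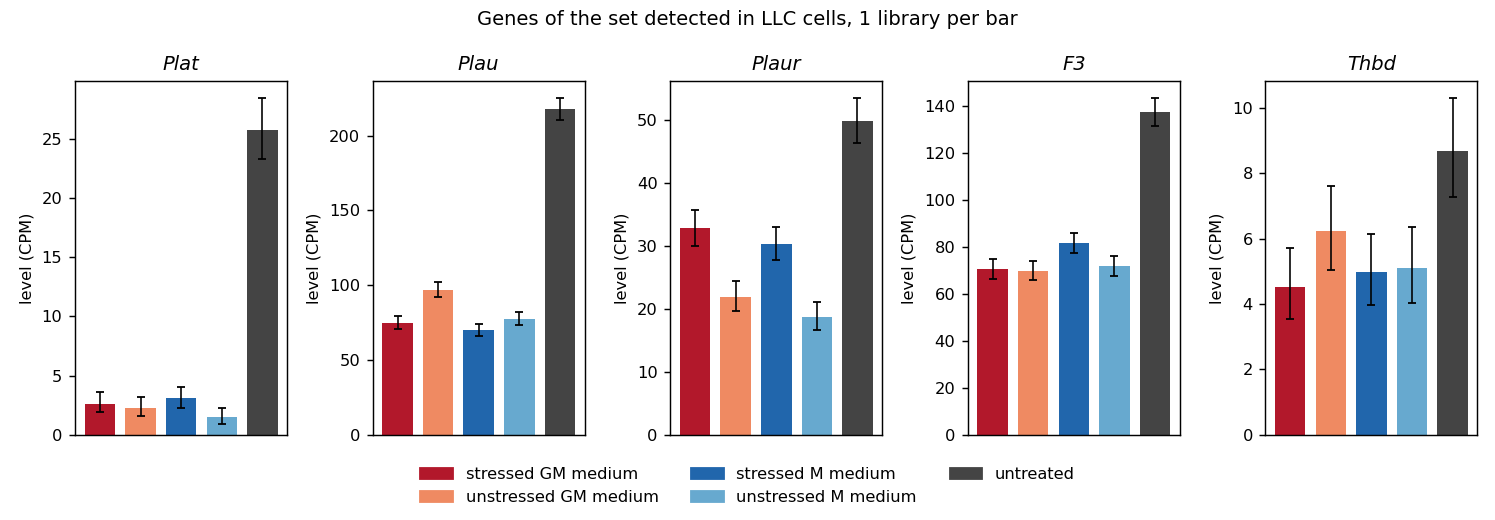
Levels of the 5 genes of the set detected in LLC cells, in CPM (y axis from 0, a scale per gene), 1 library per bar, with exact 95% counting intervals. The untreated bar is the highest in each panel, and Plaur is higher in both stressed media than in both unstressed media.

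With 1 library per group, a gene was called higher or lower from a difference of 1 on the log2(CPM + 1) scale. Called lower than in untreated cells were 2 of 5 in stressed GM medium (Plat and Plau; 2.4% of 11190 genes), 3 of 5 in unstressed GM medium (with Plaur; 1.93%), 2 of 5 in stressed M medium (Plat and Plau; 2.14%) and 3 of 5 in unstressed M medium (with Plaur; 1.4%). The median difference of the 5 genes was -0.95, -1.15, -0.74 and -1.36 in that order of media, against 0.02, 0.03, 0.02 and 0.02 over all genes. The 4 comparisons share the untreated library, so they are not independent of each other. An additive fit over all 5 LLC libraries (edgeR quasi-likelihood test, Benjamini-Hochberg adjustment over all genes, 1 residual degree of freedom) called all 5 genes as having fallen in medium, where 21.9% of all genes fell. The log2 change was -3.47 ± 0.19 (SE) for Plat (adjusted p = 1.1e-68), -1.46 ± 0.06 for Plau (adjusted p = 8.7e-112) and -0.98 ± 0.10 for Plaur (adjusted p = 3e-19). It was -0.91 ± 0.07 for F3 (adjusted p = 6.9e-38) and -0.74 ± 0.22 for Thbd (adjusted p = 0.0029). The small p-values rest on variation pooled over genes, with a coefficient of variation of 4.28%, not on replicate cultures. The prior degrees of freedom, the weight given to this pooled variation, were infinite. With DESeq2's Wald test 4 of 5 fell and Thbd did not (adjusted p = 0.277, with a range of 0.002 to 0.277 over the alternatives).

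**Figure D2:**
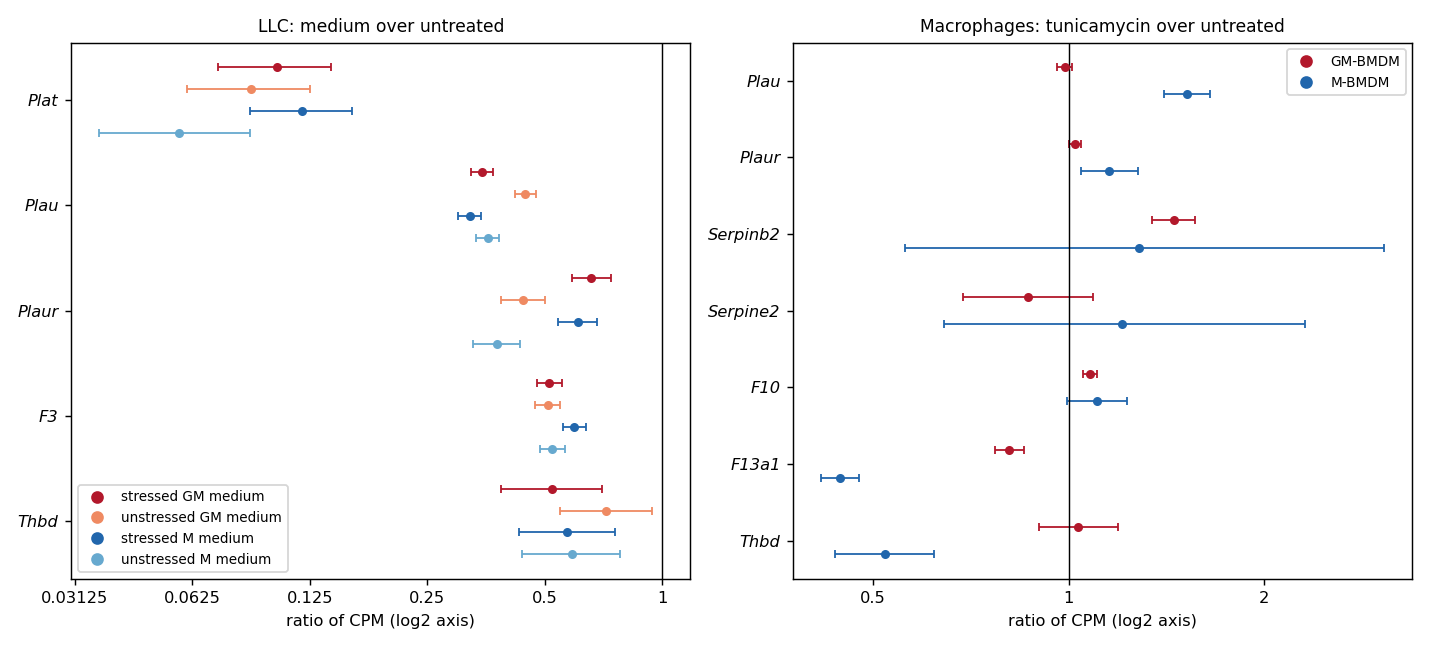
Ratios of CPM on a log2 axis with exact 95% counting intervals, for LLC cells in each medium over untreated LLC cells (left) and for macrophages with tunicamycin over untreated macrophages (right). All 20 medium ratios lie below 1, and Plat lies farthest from it. The medium ratios share the untreated library. Among macrophage ratios F13a1 and Thbd in M-BMDM are lowest.

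Stressed medium was followed by more Plaur than unstressed medium of the same kind. The Plaur level in stressed medium was 1.49 times that in unstressed GM medium (1.30 to 1.72) and 1.61 times that in unstressed M medium (1.39 to 1.87). For Plau the ratios were 0.774 with GM medium (0.717 to 0.836) and 0.898 with M medium (0.828 to 0.974). Plat had a ratio of 2.07 with M medium (1.25 to 3.55) and 1.16 with GM medium (0.725 to 1.88), F3 of 1.14 and 1.01, and Thbd of 0.975 and 0.727. No gene of the set reached a log2 difference of 1 in either kind of medium, while 0.518% of all genes did with GM medium and 0.554% with M medium. By the additive fit Plaur rose by 0.63 ± 0.11 (adjusted p = 6.1e-08) and Plau fell by 0.26 ± 0.07 on the log2 scale (adjusted p = 0.00066), thus 2 of 5, where 23.3% of all genes changed in either direction. Plat (0.61 ± 0.28, adjusted p = 0.105), F3 (0.10 ± 0.07, adjusted p = 0.289) and Thbd (-0.25 ± 0.22, adjusted p = 0.457) did not pass in edgeR. With DESeq2 neither call was made: Plau had an adjusted p of 0.184 (8.7e-05 to 0.184 over the alternatives), and Plaur was given none, at an unadjusted p of 0.00096.

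Sums of genes listed as markers of other cells also moved with stressed medium in LLC. The 12 neutrophil markers summed to 25.9 and 12.0 CPM in stressed GM and stressed M medium, against 2.21 and 2.13 CPM in unstressed GM and unstressed M medium. Nearly all of it was Lcn2, at 25.4 and 11.2 CPM in the stressed GM and stressed M media, while Csf3r, Ngp and Mmp8 were at 0 in all 5 libraries. The 7 fibroblast markers, of which Col3a1 made up most, summed to 1012 and 1003 CPM in stressed GM and stressed M medium, against 1766 and 1540.3 CPM in unstressed GM and unstressed M medium. In untreated LLC cells, given no macrophage medium, the sum was 1187 CPM, with Col3a1 at 1095 CPM. Whether other cells were present, and their part in the Plaur and Plau changes, was not tested.

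Between GM and M medium the additive edgeR fit called 1 gene of the set, Plau, and DESeq2 called none. No gene of the set reached a log2 difference of 1 between GM and M medium, unstressed (0.188% of all genes did) or stressed (0.259%). Plau in GM medium was 1.25 times its level in M medium when unstressed (1.16 to 1.35) and 1.08 times when stressed (0.992 to 1.17). In the additive fit Plau was the 1 gene of the 5 that rose (0.22 ± 0.07, adjusted p = 0.0275), where 2.21% of all genes rose. In DESeq2 it did not pass (adjusted p = 0.912, with a range of 0.0274 to 0.912 over the alternatives). The interval of the F3 ratio was 0.894 to 1.06 in unstressed media and 0.798 to 0.935 in stressed media. The stressed GM library was thus lower in F3 than the stressed M library beyond counting error only. In the additive edgeR fit F3 did not pass (-0.13 ± 0.07, adjusted p = 0.397). For Plaur the intervals in unstressed and stressed media were 0.997 to 1.37 and 0.957 to 1.23.

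Between the macrophages, GM-BMDM had far more of the urokinase system and of factor X than M-BMDM, with or without tunicamycin. In bulk RNA, fewer cells of a type and less RNA per cell cannot be told apart. Plau had 260.1 CPM in GM-BMDM with tunicamycin and 264 CPM in untreated GM-BMDM, against 37.8 CPM in M-BMDM with tunicamycin and 24.9 CPM in untreated M-BMDM. The 2 kinds did not overlap, and GM-BMDM had 6.88 times (6.52 to 7.25) the M-BMDM level with tunicamycin and 10.6 times (9.91 to 11.3) untreated. Its receptor Plaur had 433 CPM in GM-BMDM with tunicamycin and 424 CPM in untreated GM-BMDM, against 21.5 CPM in M-BMDM with tunicamycin and 18.6 CPM in untreated M-BMDM. These are ratios of 20.2 (18.8 to 21.6) with tunicamycin and 22.8 (21.1 to 24.6) untreated. Plat was at 1 to 3 counts in each of the 4 libraries.

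The inhibitors of the set, Serpinb2 and Serpine2, also had higher levels in GM-BMDM, but they passed the minimum level through GM-BMDM alone. Serpinb2 (ENSMUSG00000062345, chr1:107511423-107535478, + strand), plasminogen activator inhibitor type II, had 39.9 CPM in GM-BMDM with tunicamycin and 27.5 CPM in untreated GM-BMDM, against 0.379 CPM in M-BMDM with tunicamycin and 0.295 CPM in untreated M-BMDM. Only 16 and 11 reads lay behind the M-BMDM levels, so the ratio of 105 with tunicamycin (64.6 to 184) and of 93.1 untreated (51.8 to 187) is wide. Serpine2 (ENSMUSG00000026249, chr1:79794197-79861180, - strand), protease nexin, had 3.44 CPM in GM-BMDM with tunicamycin and 3.97 CPM in untreated GM-BMDM, against 0.616 CPM in M-BMDM with tunicamycin and 0.510 CPM in untreated M-BMDM. GM-BMDM levels were again above both M-BMDM levels, 5.58-fold with tunicamycin (3.66 to 8.83) and 7.79-fold untreated (4.83 to 13.3).

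F10 (ENSMUSG00000031444, chr8:13037308-13056676, + strand) had 302 CPM in GM-BMDM with tunicamycin and 280.1 CPM in untreated GM-BMDM, against 18.7 CPM in M-BMDM with tunicamycin and 16.9 CPM in untreated M-BMDM. The ratio of GM-BMDM to M-BMDM was 16.2 (15.0 to 17.4) with tunicamycin and 16.6 (15.3 to 18.0) untreated. F3 had 70 and 63 reads (1.65 and 1.56 CPM) in GM-BMDM with tunicamycin and untreated, against 4 reads and 1 read in M-BMDM with tunicamycin and untreated. Only in M-BMDM was F3 near the limit of detection. With a mean of 0.834 CPM over the 4 libraries, F3 did not pass the minimum level. Its ratio was 17.4 with tunicamycin (6.50 to 65.6) and 58.3 untreated (10.1 to 2339).

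F13a1 and Thbd were shared by both kinds. F13a1 (ENSMUSG00000039109, chr13:36867178-37050244, - strand) had 64.5 CPM in GM-BMDM with tunicamycin and 79.6 CPM in untreated GM-BMDM, against 31.8 CPM in M-BMDM with tunicamycin and 71.5 CPM in untreated M-BMDM. Thbd had 9.97 CPM in GM-BMDM with tunicamycin and 9.64 CPM in untreated GM-BMDM, against 4.98 CPM in M-BMDM with tunicamycin and 9.55 CPM in untreated M-BMDM. The M-BMDM library with tunicamycin was the lowest for both genes. With tunicamycin the ratio of GM-BMDM to M-BMDM was 2.03 for F13a1 (1.90 to 2.17), and for Thbd its interval ran from 1.69 to 2.38. In untreated cells it was 1.11 for F13a1 (1.06 to 1.17) and 1.01 for Thbd (0.871 to 1.17).

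**Figure D3:**
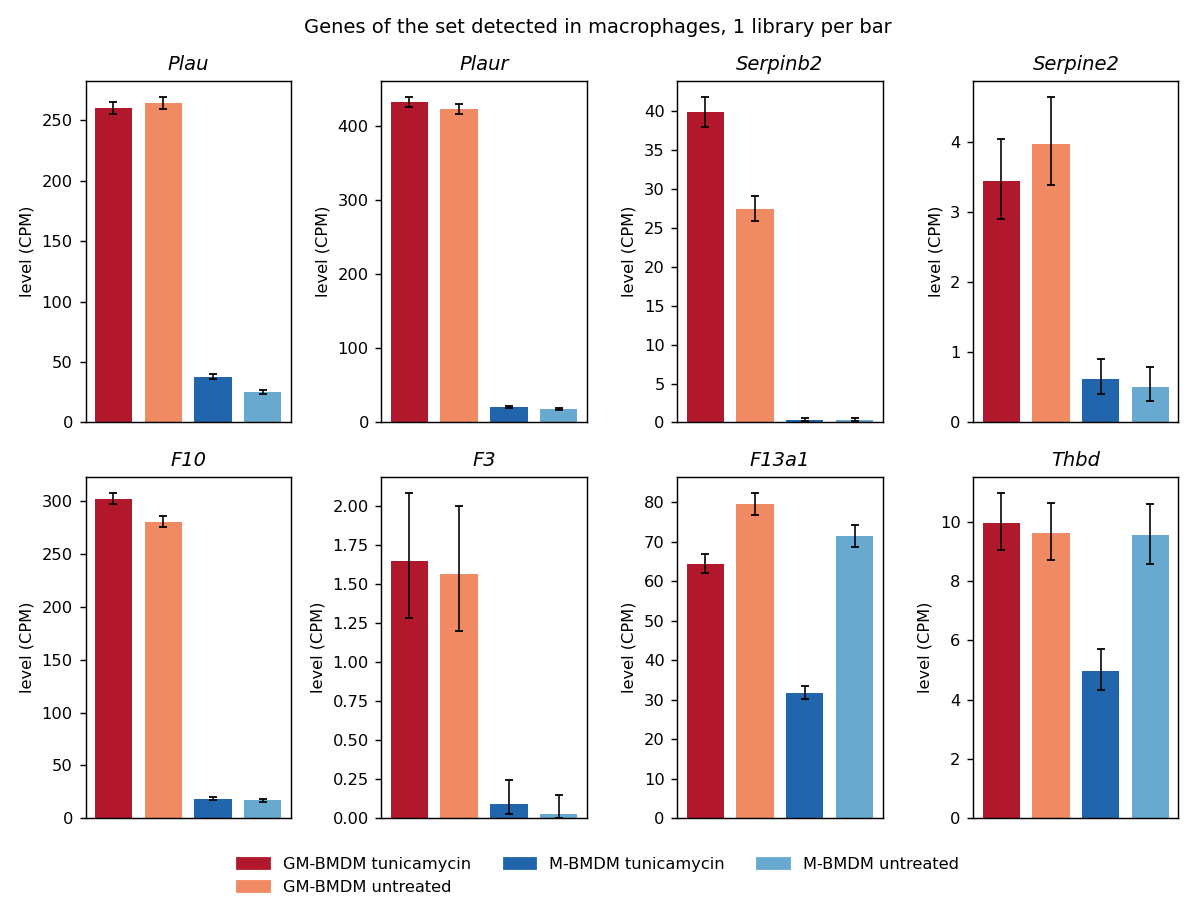
Levels of 8 genes of the set in macrophages, in CPM (y axis from 0, a scale per gene), 1 library per bar, with exact 95% counting intervals. Plau, Plaur, Serpinb2, Serpine2, F10 and F3 are higher in both GM-BMDM libraries than in both M-BMDM libraries, and F13a1 and Thbd are lowest in M-BMDM with tunicamycin. The share of all genes that separate the kinds in this way is not given here. Serpinb2 and Serpine2 passed the minimum level through GM-BMDM alone, and F3 did not pass it.

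Called higher in GM-BMDM were 5 of the 7 genes that passed, both with tunicamycin (12.6% of 11049 genes) and untreated (12.4%). Serpinb2 and Serpine2 passed the minimum through GM-BMDM alone and so had to differ, and nothing is read from their calls. Among the 5 genes at 1 CPM or more in every library, a restriction chosen after the data were seen, 3 (Plau, Plaur and F10) were called, both with tunicamycin (8.91% of 10221 such genes) and untreated (8.6%). F13a1 with tunicamycin lay just under the threshold, at a log2 difference of 0.997 (2.03-fold). By the additive fit over the 4 libraries, 4 of these 5 rose in GM-BMDM over M-BMDM (Plau, Plaur, F10 and F13a1), where 22.1% of the 10221 genes rose. With Serpinb2 and Serpine2 the fit called 6 of 7, where 25.4% of all genes rose. The log2 change was 3.09 ± 0.18 for Plau (adjusted p = 1.7e-05), 4.42 ± 0.14 for Plaur (adjusted p = 2.6e-06) and 4.03 ± 0.13 for F10 (adjusted p = 2.6e-06). F13a1 passed narrowly (0.58 ± 0.20, adjusted p = 0.0498), and with library totals in place of TMM it did not (adjusted p = 0.0642, with a range of 0.0109 to 0.0642 over the alternatives). Thbd did not pass (0.50 ± 0.24, adjusted p = 0.134).

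Markers of other marrow cells moved with the macrophage kind. The 12 neutrophil markers summed to 1623 CPM in GM-BMDM with tunicamycin and 1700.3 CPM in untreated GM-BMDM, against 233 CPM in M-BMDM with tunicamycin and 243 CPM in untreated M-BMDM, with 7 of 12 past the minimum level. Most of the GM-BMDM sum was the collagenase Mmp8 (1485 CPM with tunicamycin and 1459 CPM untreated), while the neutrophil receptor Csf3r was at 8.18 and 8.57 CPM in GM-BMDM, against 199 and 190.4 CPM in M-BMDM, with tunicamycin and untreated in each case. S100a8, S100a9, Ngp, Ltf and Lcn2 were also higher in GM-BMDM, and Csf3r alone of the neutrophil markers was lower. S100a9 had 42.8 and 71.8 CPM in GM-BMDM, against 2.13 and 1.58 CPM in M-BMDM, with tunicamycin and untreated in each case. Lcn2 had 7.85 and 12.7 CPM in GM-BMDM, against 1.92 and 1.93 CPM in M-BMDM, in the same order. Elane was at 0 in untreated M-BMDM and Ly6g in M-BMDM with tunicamycin. The 8 megakaryocyte and platelet markers, a lineage rich in F13a1, summed to 199 and 209 CPM in GM-BMDM with tunicamycin and untreated, against 22.3 and 31.2 CPM in M-BMDM with tunicamycin and untreated, with 5 of 8 past the minimum, Gp1bb at 0 in all 4 libraries and the chemokine Pf4 as the largest part. For mast cells, basophils and eosinophils the sum was 107 and 138 CPM in GM-BMDM, against 1.35 and 1.69 CPM in M-BMDM, with tunicamycin and untreated in each case, and 3 of 8 past the minimum. Most of the GM-BMDM sum was Siglecf (73.5 and 93.9 CPM) and Kit (25.5 and 35.6 CPM), in the same order. Fcer1a, Mcpt8, Epx and Ms4a2 stayed under 1 CPM in every BMDM library. For endothelium, where Thbd is best known, the 6 markers summed to 17.4 and 23.5 CPM in GM-BMDM, against 10.2 and 10.1 CPM in M-BMDM, in the same order, with 2 of 6 past the minimum. Whether such cells were present, and their part in the levels of the set, was not tested.

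After 4 h of tunicamycin 1 gene of the set, F13a1, was called lower in M-BMDM, and none was called in GM-BMDM. From the levels above, F13a1 in M-BMDM with tunicamycin was at 0.445 times its untreated level (0.417 to 0.475), a 2.25-fold lower level, and in GM-BMDM at 0.811 times (0.770 to 0.854). Thbd was 1.92-fold lower in M-BMDM (1.61 to 2.29), short of a call, and in GM-BMDM the ratio was 1.03 (0.899 to 1.19). In M-BMDM Plau was 1.52 times its untreated level (1.40 to 1.65), and in GM-BMDM 0.986 times (0.960 to 1.01). Serpinb2 in GM-BMDM was 1.45 times its untreated level (1.34 to 1.57). F10 had ratios of 1.08 in GM-BMDM and 1.11 in M-BMDM, and Plaur of 1.02 in GM-BMDM and 1.16 in M-BMDM. In GM-BMDM 0 of 7 genes were called (0.507% of all genes), and in M-BMDM 1 of 7, F13a1, was called lower (0.29%). The additive fit called 0 of 7, and 0% of all genes in edgeR, where 1103 of 11049 genes had an unadjusted p under 0.05, F13a1 and Serpinb2 among them. In that fit F13a1 had a log2 change of -0.73 ± 0.20 (adjusted p = 0.448), Serpinb2 of 0.51 ± 0.16 (adjusted p = 0.462) and Thbd of -0.43 ± 0.24 (adjusted p = 0.572). DESeq2 called 52 genes and no member of the set.

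The 8 macrophage markers, all past the minimum, summed to 36725 CPM in GM-BMDM with tunicamycin and 38779 CPM in untreated GM-BMDM, against 31521 CPM in M-BMDM with tunicamycin and 50578 CPM in untreated M-BMDM. Most of this was the lysozyme gene Lyz2, with 33138 and 34953 CPM in GM-BMDM, against 21849 and 39136 CPM in M-BMDM, with tunicamycin and untreated in each case. The other 7 summed to 3587 and 3826 CPM in GM-BMDM, against 9672 and 11442 CPM in M-BMDM, in the same order, so M-BMDM with tunicamycin was the lowest library through Lyz2 alone. Their relation to F13a1 and Thbd was not tested. The difference of the tunicamycin responses, GM-BMDM minus M-BMDM on the log2(CPM + 1) scale, was 0.86 for Thbd, 0.85 for F13a1, 0.43 for Serpinb2 and -0.60 for Plau, and with 1 library per group no test of it was possible. In LLC the difference of the responses to stressed medium, GM medium minus M medium, was -0.56 for Plat and -0.10 for Plaur.

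The other genes of both pathways were listed by role, 52 beside the 9, of which 29 passed the minimum in BMDM and 24 in LLC. These lists were also chosen with earlier results of these data known. Their counts and medians beside those of all genes are therefore a description and not a test. Of the 29, Hgfac, F8, F9, F2r and F2rl2 were under 1 CPM in at least 1 library, and the other 24 were at 1 CPM or more in all 4. In GM-BMDM over M-BMDM the additive fit called 16 of these 24 as risen and 2 as fallen, with a median log2 change of 1.05, against 2259 risen and 2611 fallen of 10221 such genes and a median of -0.06. Factor VII (F7), the partner of tissue factor, rose by 5.39 ± 0.15 (adjusted p = 2.3e-06), with 98.7 and 100.4 CPM in GM-BMDM, against 2.49 and 2.25 CPM in M-BMDM, with tunicamycin and untreated in each case. The factor X cofactor F5 rose by 3.73 ± 0.15 (adjusted p = 4.4e-06) and von Willebrand factor (Vwf) by 1.87 ± 0.12 (adjusted p = 2.4e-05). Factor IX (F9) had 106 and 93 reads in GM-BMDM, against 24 and 16 reads in M-BMDM, with tunicamycin and untreated in each case.

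On the list of plasminogen receptors and surface cofactors, all 6 genes beside Plaur rose (Lrpap1, S100a10, Eno1, Anxa2, Lrp1 and Plgrkt). Lrp1, which takes up complexes of proteases and serpins, and its associated protein Lrpap1 are not read as plasminogen receptors. Lrpap1 had the largest rise of the list, 2.93 ± 0.13 (adjusted p = 7e-06). Without Lrp1 and Lrpap1 the rises ran from 0.55 ± 0.11 for Plgrkt (adjusted p = 0.0071) to 2.13 ± 0.17 for S100a10 (adjusted p = 7.1e-05). The protease gene St14 rose by 3.52 ± 0.18 (adjusted p = 1.1e-05). Hgfac, another protease gene, had 574 and 675 reads in GM-BMDM, against 0 and 3 reads in M-BMDM, with tunicamycin and untreated in each case. That is at least 190.2-fold higher in GM-BMDM with tunicamycin, against a floor of 3 counts in that library, and a ratio of 208 untreated (71.0 to 1012). Of the genes listed as anticoagulants, the protein C receptor Procr rose by 1.96 ± 0.13 (adjusted p = 3.6e-05) and protein S (Pros1) by 1.19 ± 0.18 (adjusted p = 0.0017), and Tfpi, the tissue factor pathway inhibitor, did not pass (0.31 ± 0.17, adjusted p = 0.169). Gas6, on the same list, is a relative of protein S that binds TAM receptors and is not itself known as an anticoagulant, and it fell by 4.21 ± 0.16 (adjusted p = 3.6e-06). Gas6 had 35.4 and 40.5 CPM in GM-BMDM, against 570.2 and 860 CPM in M-BMDM, with tunicamycin and untreated in each case. The other gene that fell was the serpin Serpinb6a (-0.48 ± 0.16, adjusted p = 0.0406). Tunicamycin gave 0 calls among the 29 in edgeR and in DESeq2.

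**Figure D4:**
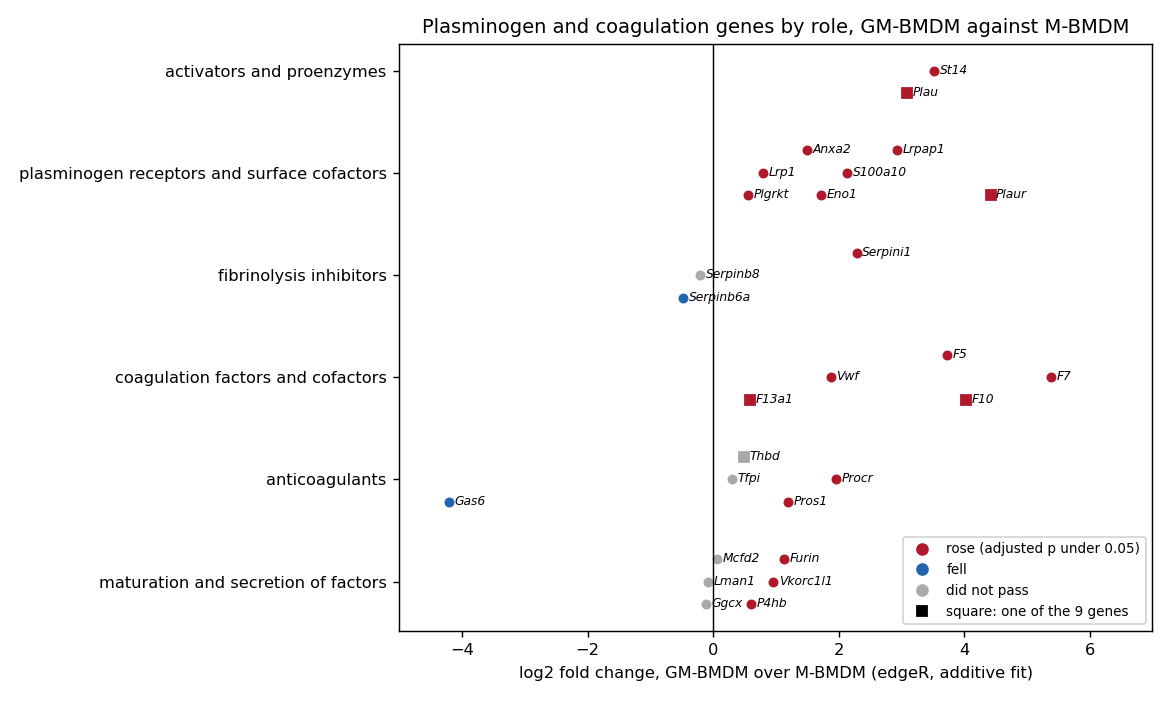
Log2 fold change of GM-BMDM over M-BMDM from the additive edgeR fit (x axis), for genes of both pathways grouped by role (rows), for genes at 1 CPM or more in every library, with genes of the set as squares. Most coloured points lie right of 0, and Gas6 lies farthest left at -4.21.

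In LLC the other pathway genes moved in both directions. Of 24 genes 5 rose and 7 fell in medium over untreated cells, with a median log2 change of -0.09, against 2781 risen and 2450 fallen of 11190 genes. Eno1, a glycolytic enzyme that also binds plasminogen, rose by 0.80 ± 0.06 (adjusted p = 2.8e-37), and Anxa2 and S100a10, which together form a plasminogen receptor, rose by 0.46 ± 0.06 (adjusted p = 4.5e-12) and 0.33 ± 0.07 (adjusted p = 3.3e-06). Vwf fell by 2.04 ± 0.41 (adjusted p = 4.4e-06) at a low level, with 5 to 24 reads in the media, against 51 reads in untreated cells. In DESeq2 4 of the 24 were called, 2 in each direction.

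In stressed over unstressed medium 5 of 24 rose and 4 fell, against 1395 risen and 1216 fallen genes in all. The ER cargo genes Mcfd2 and Lman1, which carry factors V and VIII out of the ER, rose by 0.36 ± 0.06 (adjusted p = 7.4e-08) and 0.23 ± 0.06 (adjusted p = 0.00064). P4hb, on the same list of maturation and secretion genes, rose by 0.23 ± 0.05 (adjusted p = 0.00018). Lrp1, which takes up complexes of proteases and serpins, fell by 0.41 ± 0.05 (adjusted p = 2.2e-12), and S100a10, Plgrkt and Anxa2 fell by 0.23 ± 0.06, 0.27 ± 0.10 and 0.15 ± 0.05. Eno1, on the list of plasminogen receptors with these genes, went the other way and rose by 0.26 ± 0.05 (adjusted p = 5.7e-06). In GM medium over M medium Lrp1 rose by 0.32 ± 0.05 (adjusted p = 4.3e-07) and S100a10 fell by 0.25 ± 0.06 (adjusted p = 0.0011). DESeq2 called 4 of the 24 in stressed over unstressed medium and 1 between GM and M medium.

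Genes most like each of these genes were taken as those with the smallest Euclidean distance between centred log2(CPM + 1) profiles. Over the 5 LLC libraries (10898 genes compared) the nearest were Cspg5 to Plat (distance 0.41), Mfsd2b to Plau (0.19), Aoc2 to Plaur (0.11), Tsc22d2 to F3 (0.05) and Rab4a to Thbd (0.10). Cspg5 had 1.76 CPM in stressed GM medium, 0.975 CPM in unstressed GM medium, 1.95 CPM in stressed M medium and 1.03 CPM in unstressed M medium, against 15.0 CPM in untreated cells, and so shared the drop of Plat in all 4 media. Ets2 was also near Plaur (0.26), with 84.6 and 70.1 CPM in stressed GM and stressed M medium, against 53.0 and 48.4 CPM in unstressed GM and unstressed M medium and 102 CPM in untreated cells. Over the 4 BMDM libraries (10765 genes compared) the nearest were Psrc1 to Plau (0.07), Vcan to Plaur (0.09), Car4 to Serpinb2 (0.27), Gpc1 to F10 (0.02), Tmsb4x to F13a1 (0.12) and Nynrin to Thbd (0.04). Tmsb4x had 1948 CPM in GM-BMDM with tunicamycin and 2305 CPM in untreated GM-BMDM, against 1003 CPM in M-BMDM with tunicamycin and 1985 CPM in untreated M-BMDM. With 4 or 5 libraries these distances describe the profiles and carry no test.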

How the data were processed

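RNA of 5 LLC and 4 BMDM libraries was sequenced, and read counts per gene were deposited by the authors in 1 table per cell type, with FPKM values beside them, per the file headers. The submitters' processing notes name cutadapt 1.15, HISAT2 and TopHat2 2.1.0; for the counter, its strand setting and the build, nothing is stated in what was used here. Of 21894 gene IDs, 21681 (99%) had the coordinates of GENCODE M21 (GRCm38). A stray line end inside the last cell of each LLC line was removed; all deposited counts were whole.

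Groups came from the titles and treatment labels. The 9 genes and all gene lists were chosen with earlier results of these data known. Totals were 15020068 to 17128471 reads (LLC) and 37695079 to 42751176 (BMDM). From the deposited counts, CPM were computed on TMM sizes (edgeR 4.0.16, R 4.3.3), with a minimum mean of 1 CPM (11190 LLC and 11049 BMDM genes). Ratios use no pseudocount and carry exact Clopper-Pearson 95% intervals; differences are log2(CPM + 1), called from 1, with no p-value. Additive models were fitted with edgeR (quasi-likelihood F test), called at an adjusted p under 0.05, with SE derived from F; they were checked on simulated data. The fit of BMDM held kind and tunicamycin, that of LLC medium, its kind and its tunicamycin. Medium against untreated is the mean over the 4 media. Named pathway genes are up to 4 per comparison with the largest difference at 5 CPM or more, and those called by a fit. 1 listed gene is counted in the pathway but not reported here. Alternatives were DESeq2 1.42.0 (test and size factors), library totals, a pseudocount of 0.1, no minimum, and the 4 media libraries only.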

Additional observations from a re-analysis of the deposited data

Results flagged for a closer look

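The tunicamycin ratios of 3 genes of the set lay on opposite sides of 1 in the 2 macrophage kinds. The difference was not tested, since each group held 1 library, and for each gene at least 1 of the 2 intervals includes 1. The ratio of tunicamycin over untreated was 0.986 in GM-BMDM (0.960 to 1.01) and 1.52 in M-BMDM (1.40 to 1.65) for Plau. For Thbd it was 1.03 in GM-BMDM (0.899 to 1.19) and 0.521 in M-BMDM (0.437 to 0.620). For Serpine2 it was 0.866 in GM-BMDM (0.687 to 1.09) and 1.21 in M-BMDM (0.643 to 2.31).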

How the results depend on the processing

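Each group held 1 library, so no library could be left out of a comparison, and p-values rest on the departure of single libraries from additivity. No paired analysis was possible because each group held 1 library and the labels number no replicates across groups. With a pseudocount of 0.1, 1 gene of the set (Plat) was called between stressed and unstressed M medium, against 0 with a pseudocount of 1. With DESeq2's Wald test 0 genes of the set were called between stressed and unstressed medium (2 in edgeR) and 0 between GM and M medium (1 in edgeR). The other 67 counts of called genes stayed within 1.5 times of those reported, and no called difference changed sign. Over all genes DESeq2 called 1994 in medium over untreated (5231 in edgeR), 482 in stressed over unstressed medium (2611), 36 in GM over M medium (507) and 52 for tunicamycin in BMDM (0, and 101 in edgeR with no minimum level). The cause of these gaps was not tested. Depth limits Plat in BMDM and F3, Serpinb2 and Serpine2 in M-BMDM.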
